A study of Arabidopsis thaliana with 9 samples.

Results

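The genes described here carry the gibberellin signal from its receptor to the repressors that it removes. They are the 10 loci of the receptors GID1A (AT3G05120), GID1B (AT3G63010) and GID1C (AT5G27320), the F-box proteins SLY1 (AT4G24210) and SNE (AT5G48170), and the DELLA repressors GAI (AT1G14920), RGA (AT2G01570), RGL1 (AT1G66350), RGL2 (AT3G03450) and RGL3 (AT5G17490). All 10 had a row in the table of 20777 loci. The rule for choosing them was the locus code. Transcript levels came from Affymetrix ATH1 arrays, with 3 arrays for each of 3 Arabidopsis thaliana genotypes in the Col-0 ecotype. These were 35S::GA20OX, 35S::JAW and wild type, labelled as biological replicates. The tissue was the vegetative part of seedlings at growth stage 1.03, grown on MS medium with 16 h of light and 8 h of dark at 22 °C. In 35S::GA20OX the constitutive 35S promoter drives a gibberellin 20-oxidase, an enzyme of gibberellin synthesis. In 35S::JAW it drives the JAW locus of microRNA miR319, which directs cleavage of transcripts of a group of TCP growth regulators. The promoter is active in most tissues, and how many independent lines or plants stand behind an array is not given in the sources used here.

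Gibberellin binds the soluble receptor GID1, and the bound receptor then holds a DELLA protein. The F-box protein SLY1 recruits this complex to an SCF ubiquitin ligase, and the DELLA protein is degraded. DELLA proteins are nuclear regulators of the GRAS family that restrain growth by binding other transcription factors, and they activate some genes of gibberellin synthesis and perception, a feedback that works against loss of the hormone. Control of DELLA activity is therefore largely at the protein level, and the arrays measured transcripts only.

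Of the 10 genes, 3 passed a test in at least one comparison, all of them DELLA genes, and no receptor or F-box gene did. Of all loci, 15% passed in at least one comparison. In 35S::GA20OX all 5 DELLA genes had higher mean levels than in wild type, with RGL2 past the test at 1.54-fold. The RGL2 call was lost in 6 of 16 alternative fits (adjusted p = 0.0501 to 0.138). In 35S::JAW GAI fell by 25.3% and RGL1 fell by 39.7% against wild type, while RGA had nearly the same mean. Set directly against 35S::GA20OX, 35S::JAW had less GAI, RGL1 and RGL2 transcript. In whole shoots, fewer cells of a type and less RNA per cell cannot be told apart.

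All values below are deposited RMA values on the log2 scale. Array medians lay between 6.35 and 6.41 and lower quartiles between 4.28 and 4.42. Precision is set by the 3 arrays per genotype, and over all loci the difference between genotypes had a median standard error (SE) of 0.08. The transgenes left their mark on the arrays. GA20OX1 averaged 12.96 in 35S::GA20OX, 5.21 in 35S::JAW and 6.06 in wild type, and the 5 miR319-targeted TCP genes had log2 differences of -3.43 to -1.83 between 35S::JAW and wild type. The green-tissue, floral and seed markers went with the tissue label. The 3 measured green-tissue genes lay between 13.65 and 14.32 on every array, while 5 floral and 5 seed genes had no value above 4.88. The 6 root genes had values between 3.65 and 6.20, and their array means ran from 4.62 to 4.92 in 35S::GA20OX, 4.62 to 4.86 in 35S::JAW and 4.76 to 5.14 in wild type. None of these root genes passed the test in any comparison (limma, with 0 at an unadjusted p under 0.05 in each). Floral genes had array means of 4.03 to 4.07, 3.92 to 4.07 and 3.89 to 3.96 in the same order of genotypes, with SEP1 higher in 35S::JAW by 0.24 (adjusted p = 0.0362, up to 0.133 and lost with any array left out other than 35S::GA20OX replicates 2 and 3, and also over only the 6 arrays compared or under a robust prior with an intensity trend). The part of these markers in the results was not tested.

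**Figure D1:**
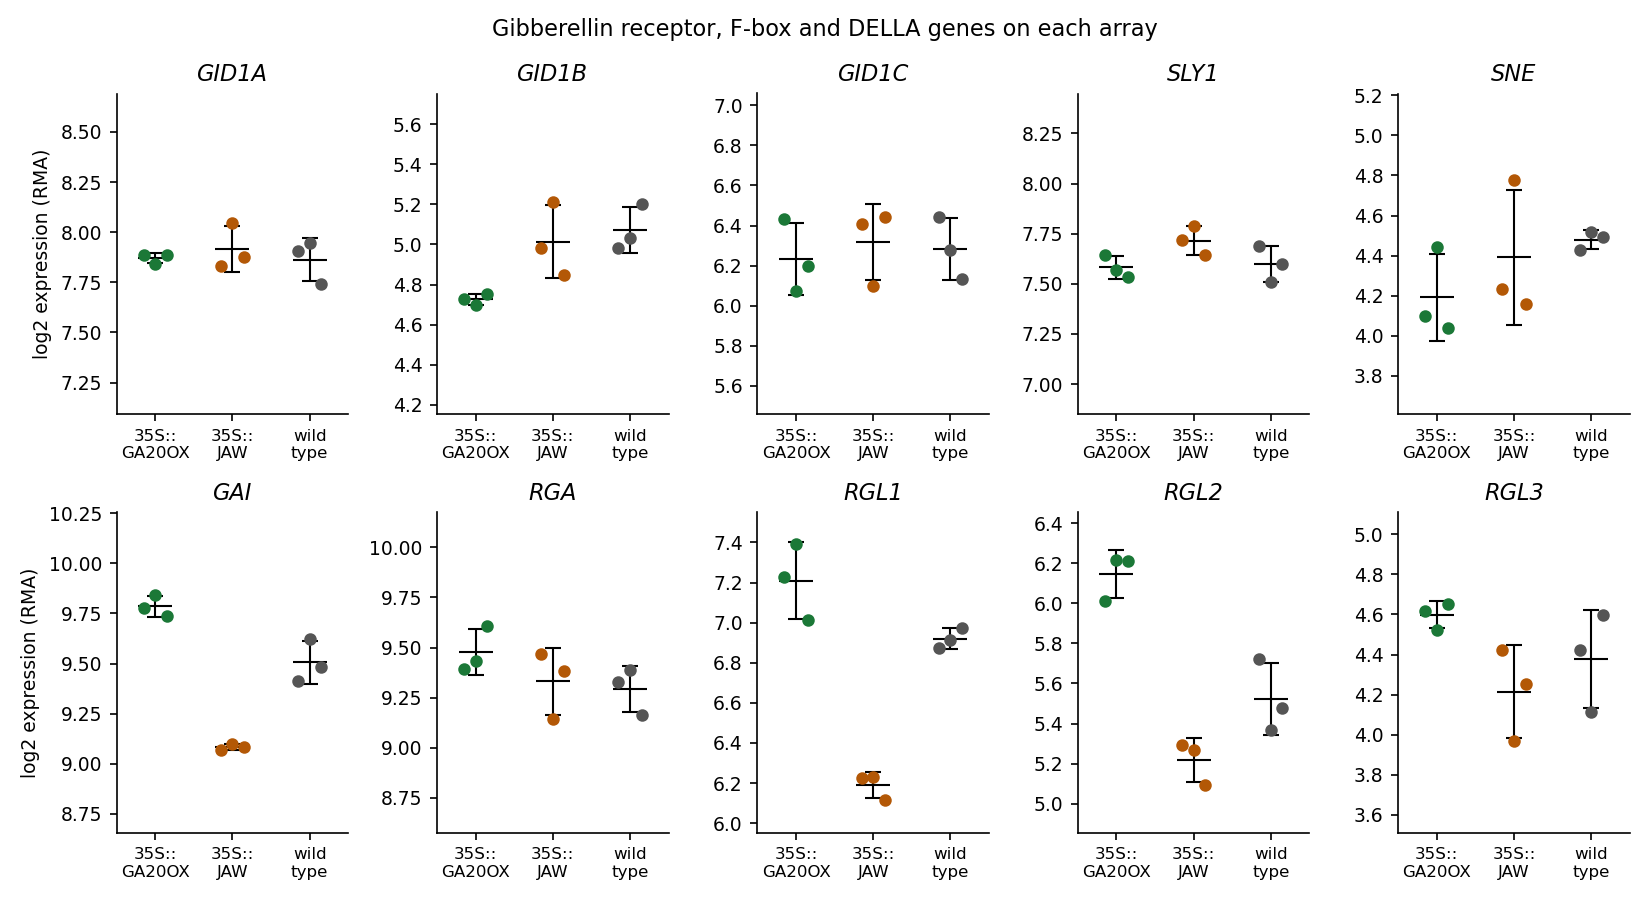
Log2 expression values (RMA) of the 10 genes on each array, with 1 panel per gene, each spanning the same 1.6 log2 units. Points are arrays, and the bar and whiskers are the mean and SD of 3 arrays. GAI, RGL1 and RGL2 separate all 3 genotypes, while the points of GID1A and GID1C overlap.

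GID1A, GID1B and GID1C are the 3 gibberellin receptors of Arabidopsis. GID1A had log2 values of 7.89, 7.84 and 7.89 in 35S::GA20OX, 7.83, 8.04 and 7.88 in 35S::JAW, and 7.90, 7.95 and 7.74 in wild type. The genotypes overlapped, and the intervals were narrow. The 95% interval of the log2 difference ran from -0.16 to 0.18 for 35S::GA20OX against wild type and from -0.12 to 0.23 for 35S::JAW against wild type. GID1C was as even in its means but more scattered among arrays: 6.43, 6.08 and 6.20 in 35S::GA20OX, 6.41, 6.10 and 6.44 in 35S::JAW, and 6.44, 6.28 and 6.13 in wild type. Its intervals ran from -0.31 to 0.21 for 35S::GA20OX and from -0.23 to 0.29 for 35S::JAW.

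GID1B was the receptor gene with a separation between genotypes. Its log2 values were 4.73, 4.70 and 4.75 in 35S::GA20OX, 4.98, 5.21 and 4.85 in 35S::JAW, and 4.98, 5.03 and 5.20 in wild type. All 3 35S::GA20OX arrays lay below every array of the other genotypes. The log2 difference from wild type was -0.35 ± 0.09 (SE) in 35S::GA20OX, which did not pass after adjustment over all loci (limma adjusted p = 0.21, unadjusted p = 0.00361, range of the adjusted p with 1 array left out 0.107 to 0.465). In 35S::JAW it was -0.06 ± 0.09, with arrays that overlapped those of wild type. GID1B is a dim transcript on these arrays and lay among the dimmest 40% of loci, together with SNE and RGL3. Both GID1A and GID1B are known targets that DELLA proteins activate. No receptor gene was called in any of the 3 comparisons (limma), and at an unadjusted p under 0.05 the count was 1 of 3 for 35S::GA20OX against wild type, 0 for 35S::JAW against wild type and 1 for 35S::JAW against 35S::GA20OX. Of all loci, 10.5%, 20.7% and 25.2% were under that p in the same 3 comparisons, and 0.332%, 8.32% and 13.2% were called.

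SLY1 encodes the F-box subunit that recognises DELLA proteins, and SNE (SNEEZY, also SLY2) its homologue. SLY1 had log2 values of 7.65, 7.57 and 7.53 in 35S::GA20OX, 7.72, 7.79 and 7.64 in 35S::JAW, and 7.69, 7.51 and 7.60 in wild type. These overlapped between genotypes within a span of 0.28 over all 9 arrays, the smallest of the 10 genes. The differences from wild type were -0.02 ± 0.07 (SE) in 35S::GA20OX and 0.12 ± 0.07 in 35S::JAW, with an interval of -0.04 to 0.27 in 35S::JAW. SNE had values of 4.10, 4.44 and 4.04 in 35S::GA20OX, 4.23, 4.78 and 4.16 in 35S::JAW, and 4.43, 4.52 and 4.49 in wild type. They lay near the lower quartile of the arrays, and replicate 2 was the highest array in each genotype. The residual SD of SNE, 0.23, was larger than that of 96.7% of loci, so the interval of its difference in 35S::GA20OX ran from -0.62 to 0.05. Neither F-box gene passed in any comparison, with 0 of 2 at an unadjusted p under 0.05 as well (limma). Of all loci, 0.332% passed in 35S::GA20OX against wild type, 8.32% in 35S::JAW against wild type and 13.2% between the lines. At that unadjusted p the shares were 10.5%, 20.7% and 25.2%.

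RGL2, a DELLA gene best known for holding back seed germination, was the member that rose in 35S::GA20OX. Its log2 values were 6.01, 6.22 and 6.21 in 35S::GA20OX, 5.30, 5.27 and 5.09 in 35S::JAW, and 5.72, 5.37 and 5.48 in wild type. The 3 genotypes did not overlap, with 35S::GA20OX on top and 35S::JAW at the bottom. The difference from wild type was 0.62 ± 0.10 (SE) in 35S::GA20OX (limma adjusted p = 0.0287), which ranked 75 by size among all loci. RGL2 was thus the 1 of 10 members called in that comparison, in which 0.332% of all loci were called (0.164% higher and 0.168% lower). The call was lost without 35S::GA20OX replicate 2 (adjusted p = 0.113), 35S::GA20OX replicate 3 (0.117), wild type replicate 2 (0.108) or wild type replicate 3 (0.138), with log2 differences between 0.55 and 0.60. It was also lost by a small margin with the replicate number as a block (0.052) and with only the 6 arrays compared (0.0501). In 35S::JAW the difference of RGL2 from wild type was -0.30 ± 0.10 (adjusted p = 0.102). It passed with array weights (-0.36, adjusted p = 0.044).

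GAI and RGL1 were highest in 35S::GA20OX and lowest in 35S::JAW. GAI, whose gain-of-function form gives gibberellin-insensitive dwarf plants, had log2 values of 9.78, 9.84 and 9.74 in 35S::GA20OX, 9.07, 9.10 and 9.08 in 35S::JAW, and 9.41, 9.62 and 9.48 in wild type. No genotype overlapped another, and the 35S::JAW arrays were within 0.03 of each other. GAI fell by 0.42 ± 0.07 (SE) in 35S::JAW against wild type (limma adjusted p = 0.00311, up to 0.0147 with 1 array left out). In 35S::GA20OX it was higher than in wild type by 0.28 ± 0.07, which did not pass (adjusted p = 0.167). With an intensity trend and robust prior it did (adjusted p = 0.0348).

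RGL1, a DELLA gene with known roles in germination and floral development, had log2 values of 7.23, 7.39 and 7.01 in 35S::GA20OX, 6.22, 6.23 and 6.11 in 35S::JAW, and 6.87, 6.91 and 6.97 in wild type. Again the genotypes stood apart, although 35S::GA20OX replicate 3 came within 0.04 of the highest wild-type array. RGL1 fell by 0.73 ± 0.09 (SE) in 35S::JAW (adjusted p = 0.000497, up to 0.00391 with 1 array left out), the deepest decrease among the members. Its difference of 0.29 ± 0.09 in 35S::GA20OX did not pass (adjusted p = 0.289). GAI and RGL1 were the 2 of 10 members called in 35S::JAW against wild type, where 8.32% of all loci were called (4.34% higher and 3.98% lower).

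RGA, which with GAI is the main DELLA restraint on stem and leaf growth, was not called in any comparison. The log2 values of RGA were 9.39, 9.43 and 9.61 in 35S::GA20OX, 9.47, 9.14 and 9.38 in 35S::JAW, and 9.33, 9.39 and 9.17 in wild type. The 35S::GA20OX arrays lay just above all wild-type arrays, by 0.0069, and the 35S::JAW arrays spread over the range of wild type. The differences from wild type were 0.18 ± 0.10 (SE) in 35S::GA20OX and 0.04 ± 0.10 in 35S::JAW, neither past the test (limma adjusted p = 0.551 and 0.877). The interval in 35S::GA20OX ran from -0.03 to 0.40, which includes the differences measured there for GAI and RGL1. The interval in 35S::JAW ran from -0.18 to 0.25, which does not reach the decrease measured for GAI. RGL3, the DELLA gene linked to jasmonate responses, was dim and scattered: 4.62, 4.52 and 4.65 in 35S::GA20OX, 4.42, 3.97 and 4.25 in 35S::JAW, and 4.42, 4.11 and 4.60 in wild type. Its differences of 0.22 ± 0.13 in 35S::GA20OX and -0.16 ± 0.13 in 35S::JAW did not pass, and the arrays of each line overlapped those of wild type.

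As a group, the 5 DELLA genes had 1 called higher and 0 called lower in 35S::GA20OX, where 0.332% of all loci were called, with a median log2 difference of 0.28, against 0.00 over all loci. All 5 differences were positive, and 4 of 5 had arrays that did not overlap wild type. In 35S::JAW, 0 were called higher and 2 lower, against 8.32% of all loci called in either direction. There 4 of 5 differences were negative, and the median was -0.30, against 0.01 over all loci, and 3 of the 5 had arrays entirely below wild type. Over all 10 members, 5 did not overlap between 35S::GA20OX and wild type, where 16.8% of all loci did not (8.53% above and 8.3% below wild type), and 3 did not between 35S::JAW and wild type, where 25.6% did not (14.2% above and 11.4% below). Both comparisons share the wild-type arrays, so the signs in them are not independent.

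**Figure D2:**
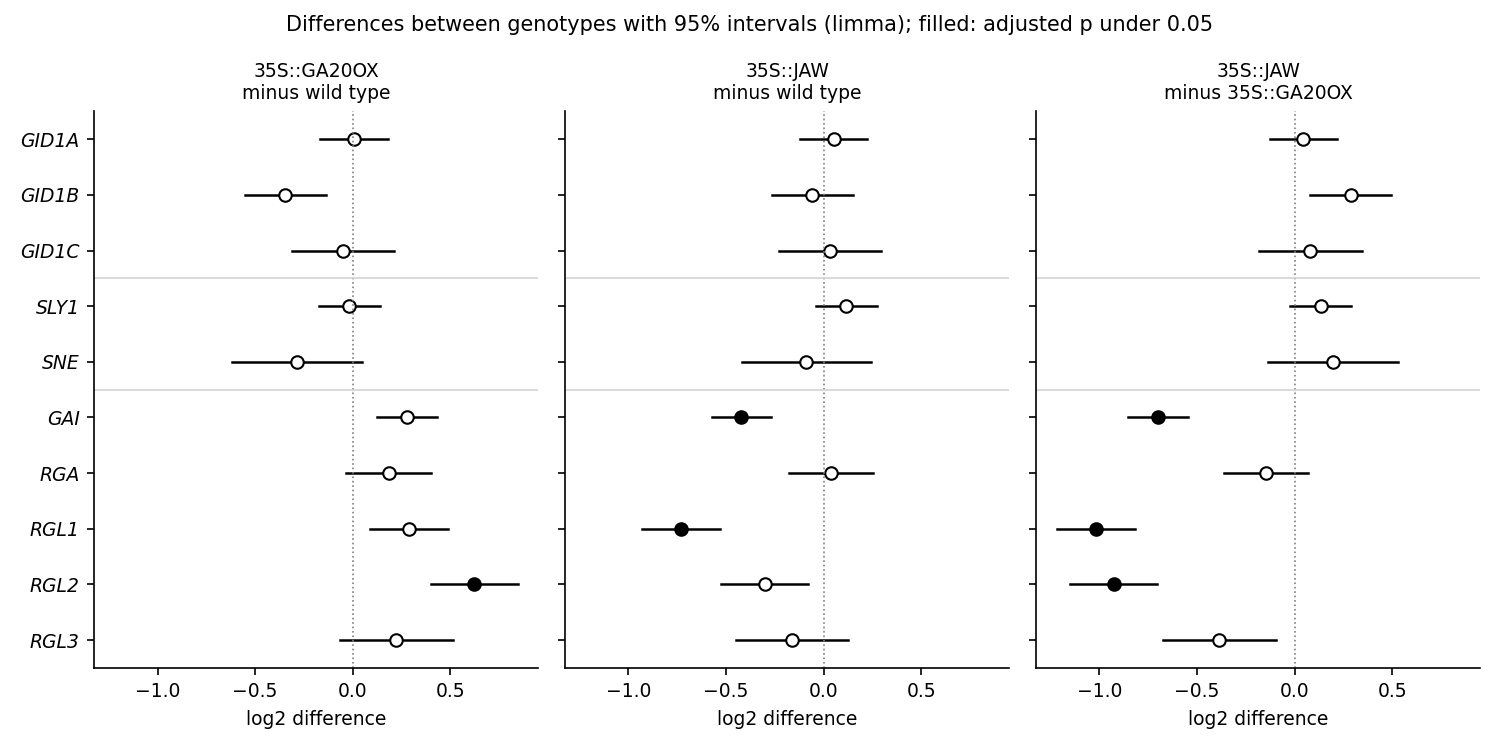
Log2 differences between genotypes (points) with 95% intervals from limma (lines) for the 10 genes; filled points passed an adjusted p of 0.05. In 35S::JAW minus 35S::GA20OX, the filled points are GAI at -0.70, RGL1 at -1.02 and RGL2 at -0.93.

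The direct comparison of 35S::JAW with 35S::GA20OX does not use the wild-type arrays for the difference and asks how the lines differ from each other. RGL1 averaged 6.19 ± 0.07 in 35S::JAW and 7.21 ± 0.19 in 35S::GA20OX (SD, n = 3 each), so its level in 35S::JAW was 0.493 of that in 35S::GA20OX (limma adjusted p = 3.37e-05). RGL2 averaged 5.22 ± 0.11 in 35S::JAW and 6.15 ± 0.12 in 35S::GA20OX, a ratio of 0.526 (limma adjusted p = 0.000139). GAI averaged 9.09 ± 0.01 in 35S::JAW and 9.78 ± 0.05 in 35S::GA20OX, a ratio of 0.616 (limma adjusted p = 7.03e-05). The 3 genes fell in all 9 fits that left out 1 array, with an adjusted p of at most 0.00112. They were the only members of the 10 to be called here, against 13.2% of all loci (6.71% higher and 6.52% lower). An F test over the 3 genotypes called the same 3, against 11.5% of all loci. RGL3 also had all 35S::JAW arrays below those of 35S::GA20OX, at -0.38 ± 0.13 (SE, adjusted p = 0.0829), and was called with the replicate block (0.0207), without 35S::JAW replicate 1 (0.0494) and without wild type replicate 2 (0.0459). GID1B lay the other way, higher in 35S::JAW by 0.29 ± 0.09 (adjusted p = 0.07), with no overlap, and was called with cyclic loess (0.0479) and without 35S::JAW replicate 3 (0.0327). For RGA the difference was -0.15 ± 0.10, with an interval of -0.36 to 0.07. Of the 10 members 5 did not overlap between the lines, where 30.2% of all loci did not (15.9% above and 14.3% below).

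The DELLA genes were also compared within arrays, by the log2 ratio of each to RGA relative to its mean in wild type. This ratio was chosen after the values had been seen. It shows unequal change and not which of the genes changed. GAI over RGA stood at -0.61, -0.26 and -0.51 in 35S::JAW, against -0.13, 0.02 and 0.10 in wild type, with no overlap. RGL1 over RGA stood at -0.87, -0.54 and -0.90 in 35S::JAW, against -0.08, -0.10 and 0.18 in wild type, again with none. RGL2 over RGA stood at 0.39, 0.56 and 0.37 in 35S::GA20OX, against 0.16, -0.25 and 0.08 in wild type. In these 3 cases, and for each of the 4 genes between 35S::JAW and 35S::GA20OX, the exact two-sided permutation test gave p = 0.1, the smallest it can give with 3 arrays against 3 (0.171 adjusted over the 12 tests). GAI over RGA in 35S::GA20OX overlapped wild type, at 0.17, 0.20 and -0.09 (exact p = 0.5). So did RGL1 over RGA in 35S::GA20OX (exact p = 0.6) and RGL2 over RGA in 35S::JAW (exact p = 0.2). RGL3 over RGA overlapped wild type in both lines (exact p = 0.5 in 35S::JAW).

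**Figure D3:**
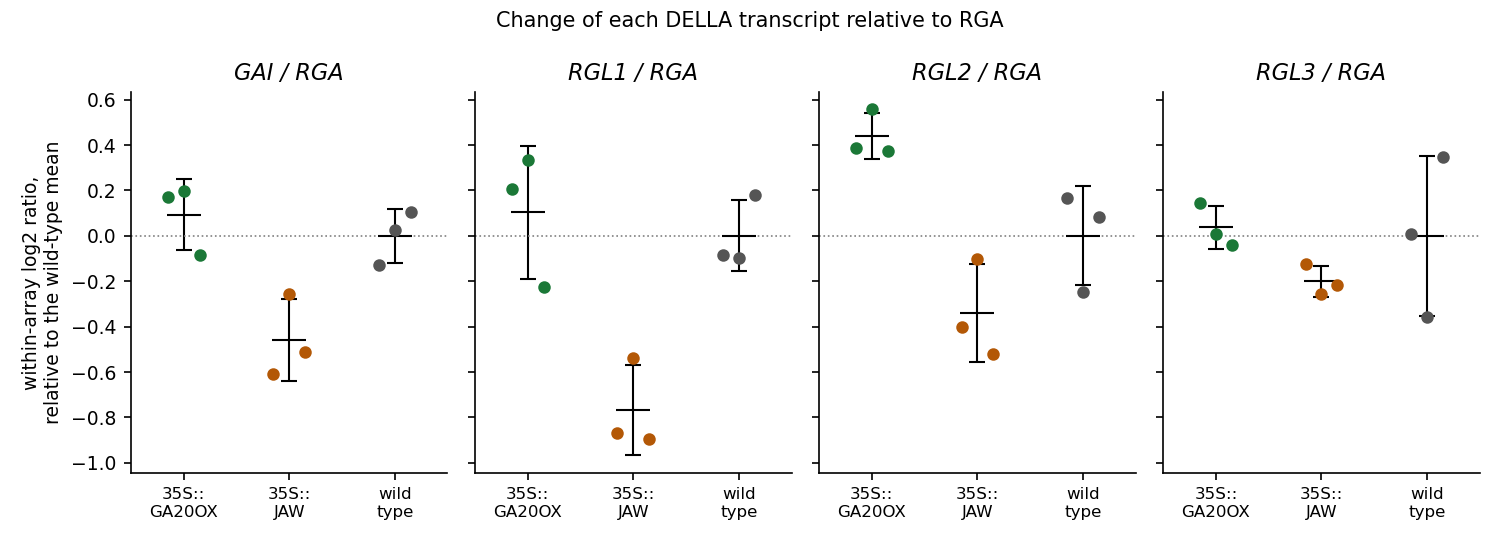
Within-array log2 ratio of GAI, RGL1, RGL2 and RGL3 to RGA, each relative to its wild-type mean, with the mean and SD of 3 arrays per genotype. The ratios of GAI and RGL1 in 35S::JAW lie at -0.26 and lower, below every wild-type array, while those of RGL3 overlap wild type.

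For each member called against wild type, the loci with the most similar profile over the 9 arrays were found by Pearson's r, as a description only. The arrays share genotypes, so r is high for any locus with the same steps between them. AT4G02630 came closest to both GAI (r = 0.991) and RGL1 (r = 0.983). It differed from wild type by 0.21 ± 0.07 (SE) in 35S::GA20OX, short of the test, and fell by 0.51 ± 0.07 in 35S::JAW (limma adjusted p = 0.00103). GAI was further matched by AGP12, an arabinogalactan protein gene (0.979), and RCI2B, named as a cold-inducible gene (0.978). RCI2B fell by 1.17 ± 0.14 in 35S::JAW (adjusted p = 0.000364), and its difference of 0.77 ± 0.14 in 35S::GA20OX passed narrowly (adjusted p = 0.0496). That call was lost with any array left out other than 35S::GA20OX replicate 3 and 35S::JAW replicate 2 (adjusted p up to 0.194), with the replicate block (0.0673) and with only the 6 arrays compared (0.067). RGL1 was further matched by AT5G50740 (0.982) and AT3G56370 (0.978). The profile closest to RGL2 was that of FMO GS-OX2, which oxidises glucosinolate side chains (0.98), followed by AT3G56080 (0.977) and PMD2 (0.969). FMO GS-OX2 had a difference of -1.41 ± 0.14 in 35S::JAW against 35S::GA20OX (adjusted p = 7e-05).

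Among genes that DELLA proteins are known to activate, calls were to the lower side in 35S::GA20OX and to both sides in 35S::JAW. Of these 14, which include GID1A and GID1B, 0 were called higher and 2 lower in 35S::GA20OX (0.332% of all loci were called there), with a median difference of -0.16, against 0.00 over all loci. The gibberellin 3-oxidase gene GA3OX1, which makes the bioactive hormone, averaged 6.57 in 35S::GA20OX and 7.16 in wild type (adjusted p = 0.00482). The MYB-like gene AT3G11280 averaged 7.91 in 35S::GA20OX and 8.34 in wild type, and its call was lost without any 1 of the 6 arrays compared (adjusted p up to 0.0763). In 35S::JAW 2 were called higher and 3 lower (8.32% of all loci were called there), with a median of 0.05, against 0.01 over all loci. XERICO, a gene of abscisic acid accumulation, rose by 0.51 ± 0.09 (SE, adjusted p = 0.00565), and BHLH137 (AT5G50915) fell by 0.48 ± 0.08 (adjusted p = 0.00258).

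Gene families linked to the gibberellin response also held members of both signs. The GASA family encodes small cysteine-rich proteins related to a gibberellin-stimulated transcript of tomato. Of 13 measured genes 0 were called higher and 2 lower in 35S::GA20OX, against 0.332% of all loci: GASA1 averaged 8.74 in 35S::GA20OX and 9.50 in wild type (adjusted p = 0.0131, and 0.0562 without 35S::GA20OX replicate 3), and GASA9 averaged 9.73 in 35S::GA20OX and 10.34 in wild type (adjusted p = 0.00459). In 35S::JAW 3 were called higher and 1 lower, where 4.34% of all loci were called higher and 3.98% lower, led by GASA4 at 0.58 ± 0.09 (adjusted p = 0.00189) and GASA7 at -0.57 ± 0.13 (adjusted p = 0.019). The call of GASA7 was lost without 35S::JAW replicate 1 or any 1 wild-type array (adjusted p up to 0.0667). Between the lines GASA9 was higher in 35S::JAW by 1.02 ± 0.07 and GASA1 by 0.89 ± 0.10. The PRE genes encode small helix-loop-helix proteins that promote elongation. PRE1 averaged 5.93 in 35S::JAW and 7.86 in wild type, a fall of 1.93 ± 0.20 (adjusted p = 0.000122). In 35S::GA20OX it averaged 8.60, a difference of 0.74 ± 0.20 from wild type that did not pass (adjusted p = 0.191). The other 2 measured PRE genes were not called in either line, and both had negative differences from wild type in 35S::GA20OX. These were -0.42 ± 0.14 for PRE2 (limma adjusted p = 0.302) and -0.10 ± 0.09 for PRE3 (adjusted p = 0.737).

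In 35S::GA20OX 0.332% of all loci were called and 10.5% had an unadjusted p under 0.05 (limma). Calls there fell in some of the lists upstream and downstream of the receptors and not in others. Of 14 synthesis genes 2 were called: GA20OX1, which marks the transgene of this line, rose and GA3OX1 fell. Among 11 inactivation genes 0 were called (limma, 1 at an unadjusted p under 0.05). Of 8 genes for DELLA-modifying enzymes and SCF subunits, such as the O-fucosyltransferase gene SPY and CUL1, 0 were called in either line, and their differences lay between -0.06 and 0.07 in 35S::GA20OX and between -0.16 and 0.17 in 35S::JAW. At an unadjusted p under 0.05 there were 0 and 2, against 10.5% and 20.7% of all loci. Of 21 genes for transcription factors and other regulators whose products bind DELLA proteins, 0 were called in 35S::GA20OX (3 at an unadjusted p under 0.05). In 35S::JAW 3 were called higher and 3 lower, against 8.32% of all loci in either direction, with the auxin response factor gene ARF6 at 0.66 ± 0.10 (SE, adjusted p = 0.00236) and the jasmonate repressor gene JAZ1 at -0.99 ± 0.14 (adjusted p = 0.00111). In 35S::JAW 4 of the 14 synthesis genes were called higher and 1 lower, against 8.32% of all loci called in either direction. Those called higher included 2 dim genes near or below the lower quartile of the arrays. GA20OX2 averaged 4.36 in 35S::JAW and 4.03 in wild type, and GA20OX3 averaged 4.05 and 3.75. The ent-kaurene synthase gene GA2 averaged 7.33 in 35S::JAW and 6.71 in wild type (adjusted p = 0.000294), and GA20OX1, without a transgene there, averaged 5.21 in 35S::JAW and 6.06 in wild type (adjusted p = 0.000235). Between the lines, the gibberellin 2-oxidase gene GA2OX2 had a difference of -0.58 ± 0.13 in 35S::JAW against 35S::GA20OX (adjusted p = 0.0119, up to 0.053 without 35S::GA20OX replicate 2 or 35S::JAW replicate 1), and the gibberellin methyltransferase gene GAMT1 was higher by 0.43 ± 0.08 (adjusted p = 0.00487).

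**Figure D4:**
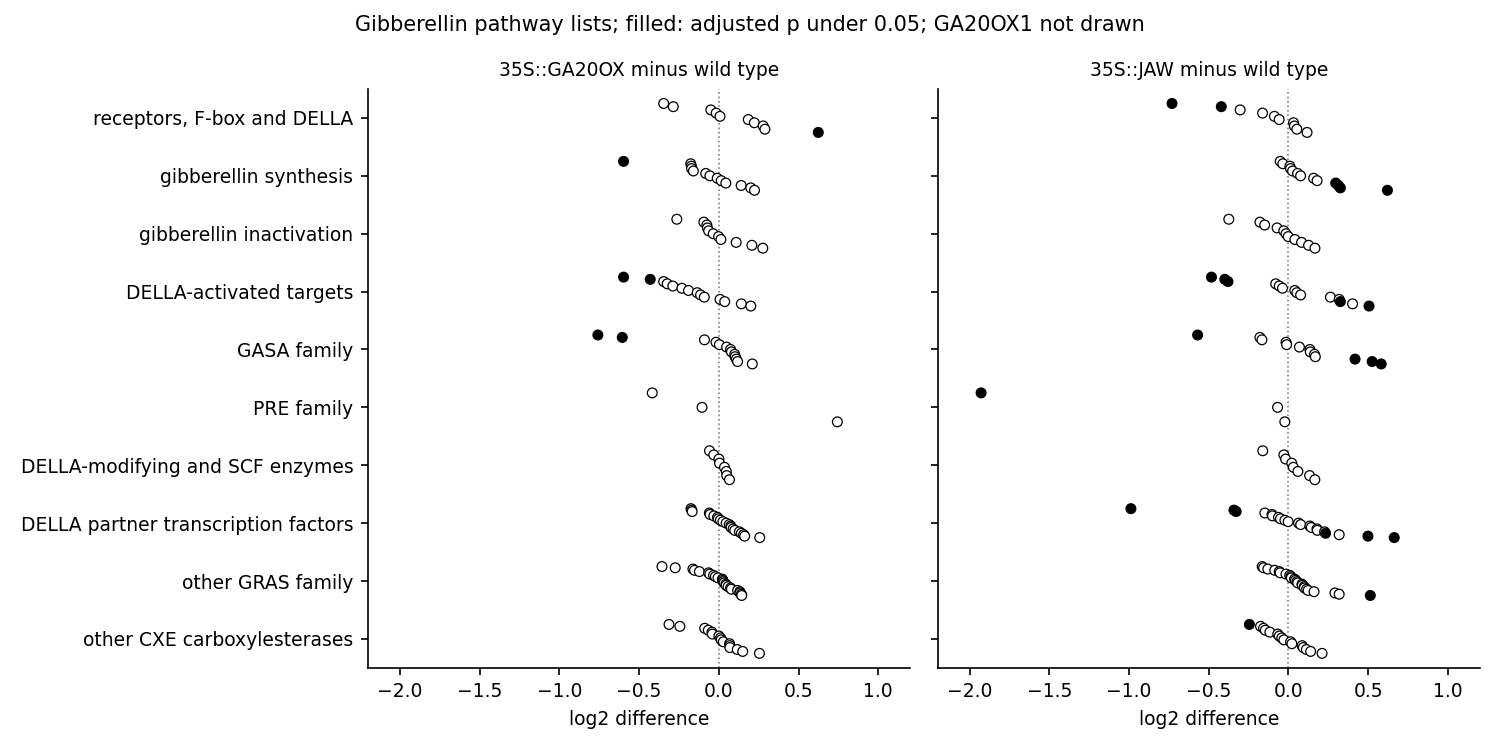
Log2 differences from wild type of each gene (points) in the gibberellin gene lists, for 35S::GA20OX and 35S::JAW; filled points passed an adjusted p of 0.05, and GA20OX1 is not drawn. The 8 genes for DELLA-modifying enzymes and SCF subunits lie between -0.16 and 0.17 in both lines, while PRE1 in 35S::JAW stands at -1.93.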

How the data were processed

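Log2 expression values of 20777 loci on 9 arrays were deposited by the authors and, per the submitters' processing notes, came from RMA. This method subtracts background, normalises across arrays and combines the probes of a locus, which compresses changes of dim genes. No source used here gives its version or chip definition, and probes shared by similar loci, such as GAI and RGA, were not checked. All loci were fitted with limma 3.58.1 in R 4.3.3, with a mean for each genotype and a shared spread, and eBayes gave two-sided p-values. Benjamini-Hochberg adjustment covered all loci in each comparison, and "called" means an adjusted p under 0.05. Exact permutation tests used scipy 1.17.1. On simulated data for 35S::JAW against wild type over 20777 loci, 84% of changes of 0.5 and 98% of changes of 1 (log2) were recovered. These shares do not apply to smaller changes or to 35S::GA20OX against wild type. The simulation changed 200 loci at each size, fewer than the 1729 called in the data, so recovery in the data may differ.

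Members and lists were chosen with earlier results of these data known. The text names all members, up to 2 called genes per list and comparison, and the 3 loci closest to each member called against wild type. A few other list members are named for context. Loci outside the lists were named from a RefSeq table of TAIR10.1, which held 20508 loci of the table. PRE4, PRE5, PRE6, GASA13, FKF1, BZR1, BES1, CXE3, RBCS1A and CAB1 were listed but are not analysed here. The alternatives were cyclic loess, median centring, a filter that drops the 40% of loci with the lowest means, a trended robust prior, array weights, the replicate block, a fit to the 6 arrays of the genotypes compared, and removal of each array in turn. The series text also mentions a GRF5 line, which no sample is labelled with.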

Additional observations from a re-analysis of the deposited data

How the results depend on the processing

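Of the 10 members, GAI and RGL1 in 35S::JAW against wild type, and GAI, RGL1 and RGL2 in 35S::JAW against 35S::GA20OX, kept their calls and directions under all 16 alternatives. The count called in 35S::GA20OX was 2 with the intensity trend and robust prior, 0 with only the 6 arrays compared, and between 0 and 1 with 1 array left out (limma, with 5 members at an unadjusted p under 0.05 over the 6 arrays). Of all loci, that comparison called 108 without the dimmest 40%, 205 with the trend and robust prior and 22 to 79 with 1 array left out, with 22 without wild type replicate 3 and at most 43 without any other of the 6 arrays compared, against 69. In 35S::JAW against wild type it was 1074 to 1682 with 1 array left out, with the lowest count when wild type replicate 3 was dropped and 1135 when replicate 1 was, against 1729. Same-numbered arrays deviated together with r of -0.10 to 0.25, and differently numbered arrays with r of -0.22 to 0.17. Of 9 arrays, 2 matched their own number best in both other genotypes. This does not settle whether the numbers are pairs, so the main fit left them out and the replicate block was an alternative. With the replicate block 0 members were called in 35S::GA20OX (6 at an unadjusted p under 0.05) and RGL3 was added between the lines.

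With 1 array left out, small differences that were never called changed sign. In 35S::GA20OX against wild type these were GID1A (-0.054 to 0.049), GID1C (-0.15 to 0.030) and SLY1 (-0.060 to 0.028). In 35S::JAW against wild type they were GID1A (-0.011 to 0.096), GID1B (-0.16 to 0.024), GID1C (-0.044 to 0.14), SNE (-0.28 to 0.027) and RGA (-0.031 to 0.13). In 35S::JAW against 35S::GA20OX it was GID1A (-0.019 to 0.088). The cause was not tested. GID1B, SNE and RGL3 were not tested in the fit without the dimmest 40%, and 3 arrays per genotype limit what could be seen for them.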

Other observations

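Of 24 other GRAS genes, relatives of the DELLA genes, 0 were called in 35S::GA20OX (limma, 2 at an unadjusted p under 0.05). In that comparison 0.332% of all loci were called and 10.5% were under that unadjusted p. The differences of the 24 genes from wild type were -0.36 to 0.14 with a median of 0.03, against 0.00 over all loci. In 35S::JAW SCL27, a HAIRY MERISTEM gene that maintains meristems, rose by 0.51 ± 0.07 (SE, adjusted p = 0.000638), as the 1 of 24 called, where 8.32% of all loci were. Between the lines 3 were called higher and 1 lower in 35S::JAW, where 13.2% of all loci were called, with SCL27 at 0.57 ± 0.07 and SCL11 at 0.47 ± 0.11 (adjusted p = 0.0176, up to 0.0681 without 35S::GA20OX replicate 2 or 3 or 35S::JAW replicate 1).

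GID1 receptors descend from the carboxylesterase (CXE) family. Of 16 other measured CXE genes 0 were called in 35S::GA20OX (limma, 3 at an unadjusted p under 0.05), with differences of -0.31 to 0.26. There 0.332% of all loci were called and 10.5% were under that unadjusted p. The shares of all loci called were 8.32% in 35S::JAW against wild type and 13.2% between the lines. In 35S::JAW 1 of the 16 was called, CXE12 at -0.24 ± 0.06 (adjusted p = 0.0388, and up to 0.148 under alternatives, with the call held only without 35S::GA20OX replicate 1, 35S::JAW replicate 2 or wild type replicate 2 among the fits that left out 1 array, and lost with the replicate block, with arrays centred on medians and with only the 6 arrays compared). Between the lines 1 was higher and 3 were lower in 35S::JAW, among them CXE13 at 0.42 ± 0.09 and CXE8 at -0.41 ± 0.10, whose call was lost without 35S::GA20OX replicate 1 or 2 or 35S::JAW replicate 2 or 3 (adjusted p up to 0.0589).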
